A study of Sus scrofa with 7 samples.

Results

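The genes described here belong to bone morphogenetic protein (BMP) signalling: the ligands BMP2, BMP4 and BMP7, the receptors BMPR1A and BMPR2, the inhibitory SMADs SMAD6 and SMAD7, and the target genes ID1, ID2 and ID3. They were found by gene name in the deposited tables, and 9 of the 10 names were present among the 29510 genes listed. ID3 had no row under its name. BMP2 had 2 rows, of which the one with more counts was used. RNA was sequenced from 3 extra-embryonic endoderm (pXEN) cell lines of the pig and from porcine embryonic stem cells (ESCs), 2 lines in a naïve-like state (nESC) and 2 in a primed state (pESC), with 1 library per line. The number of replicates is therefore the number of lines, and p-values measure only the spread between these lines. The pXEN lines came from inner cell masses of parthenogenetic blastocysts and grew on feeders of mouse embryonic fibroblasts. Their medium held LIF, the GSK3 inhibitor CHIR99021, (S)-(+)-dimethindene maleate, minocycline hydrochloride and the ROCK inhibitor Y27632, with serum. The nESCs also came from inner cell masses and grew on mouse embryonic fibroblasts, with FGF, LIF, CHIR99021, the MEK inhibitor PD0325901, the TGFβ receptor inhibitor SB431542 and doxycycline. The sample labels describe the pESCs as converted from nESCs, while the authors' text says only that primed ESCs were derived earlier in their laboratory. The pESCs grew on STO cells, a mouse fibroblast line, with activin A, bFGF, EGF and LIF. BMP was not among the listed additions to these media. The lines also differed in passage, at 26, 26 and 23 for pXEN lines 1, 2 and 3, at 21 and 22 for the nESC lines and at 20 for both pESC lines, so cell type, medium and passage cannot be told apart in any comparison, nor can the feeder in those with pESCs.

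BMPs are secreted ligands of the TGFβ superfamily that bind paired type I and type II receptors on the cell surface. The activated type I receptor phosphorylates SMAD1, SMAD5 and SMAD9, which enter the nucleus with SMAD4 and switch on targets that include the ID genes and the inhibitory SMADs. ID proteins bind E proteins, such as TCF3, and keep them from DNA, whereas SMAD6 and SMAD7 damp the signal that induced them. In the early mammalian embryo, BMP signals pass between the epiblast and the extra-embryonic tissues and take part in the maturation of visceral endoderm.

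Counts on genes ranged from 10408164 to 12995720 per library. At this depth 3 counts, the floor used here, equal 0.231 to 0.288 CPM (counts scaled to the library total), a limit that covers counting error only. Levels are given as FPKM, fragments scaled by gene length and by 1 constant per library. Levels of different genes can then be compared as far as the lengths of their gene models hold. Differences in counts were tested by the quasi-likelihood method of edgeR with Benjamini-Hochberg adjustment over the 17447 genes tested, and an adjusted p below 0.05 is referred to as a call. The labels of the lines were compared with marker genes. The 14 extra-embryonic endoderm markers, including GATA4, GATA6 and SOX17, summed to between 3369 and 3946 FPKM in the pXEN lines, 63.4 and 74.4 FPKM in the nESC lines, and 310 and 318 FPKM in the pESC lines. Of the 14, 13 were higher in every pXEN line than in any ESC line, and SOX7 had at most 3 counts in any library. COL4A1, at 1267, 1026 and 1068 FPKM, and COL4A2, at 857, 813 and 793 FPKM, were the largest parts of the pXEN sum. The 10 pluripotency markers summed to between 152 and 215 FPKM in the pXEN lines, 145 and 170 FPKM in the nESC lines, and 666 and 696 FPKM in the pESC lines, so that pXEN cells and nESCs overlapped. Of these, SOX2 was at 0, 1.98 and 0 FPKM in pXEN lines 1, 2 and 3 and between 102 and 154 FPKM in the ESC lines. NANOG, in contrast, was at 15.5, 4.497 and 13.0 FPKM in the pXEN lines and at most 1.43 FPKM in the ESC lines, and OTX2 was also highest in the pXEN lines. POU5F1, a defining pluripotency factor, was at 0.284 FPKM or less in every library, the ESC lines included. The authors, however, reported OCT4 (POU5F1) and NANOG in nESCs and not in pXEN cells, by immunofluorescence, RT-PCR and Western blotting. They also reported OCT4 in primed ESCs by immunofluorescence. Why the rows for POU5F1 and NANOG differ from those assays was not tested, so they do not show that the ESC lines lack either factor. pXEN line 2 stood apart in its fibroblast markers, of which 11 of 12 were matched. They summed to 19.7, 256 and 22.2 FPKM in pXEN lines 1, 2 and 3, between 55.9 and 67.8 FPKM in the nESCs, and between 61.7 and 94.3 FPKM in the pESCs. Line 2 was the highest pXEN line for 9 of the 11, led by COL1A1 at 144 FPKM and COL3A1 at 77.5 FPKM, and the highest of all 7 libraries for 5. Others of the list were higher in ESC lines, such as DCN at 18.3 and 38.8 FPKM in the pESCs, and TWIST1 at 24.2 and 28.1 FPKM in the nESCs and 15.9 and 18.3 FPKM in the pESCs, where pXEN line 2 had 1.40 and 0.192 FPKM. The 6 matched trophoblast markers summed to between 25.7 and 29.3 FPKM in the pXEN lines. The sum was between 9.05 and 13.3 FPKM in the nESCs and 74.5 and 75.9 FPKM in the pESCs. TFAP2C was at 40.4 and 37.0 FPKM in the pESCs and 0 in the pXEN lines, and CDX2 and GATA3 were also highest in pESCs. TEAD4 made up most of the pXEN sum, at 25.2, 24.5 and 28.5 FPKM. It was at 8.39 and 11.9 FPKM in the nESCs and 31.3 and 33.5 FPKM in the pESCs. ELF5 went the other way, at 1.10, 0.282 and 0.590 FPKM in the pXEN lines and 0 in the ESC lines, and HAND1 had no count. The 4 matched mesoderm markers summed to between 14.6 and 26.9 FPKM in the pXEN lines, most of it MIXL1, and to at most 3.13 FPKM in the ESC lines. The part of these markers in the differences between cell types was not tested. In bulk RNA, fewer cells of a type and less RNA per cell cannot be told apart.

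From ligands to target genes, the levels were higher in pXEN cells than in nESCs. All 9 genes were called higher in the pXEN lines, where 28.3% of all tested genes were called higher and 26.2% lower. All 9 passed the filter on low counts, BMP2 through the pXEN lines and BMP7 through the pXEN and pESC lines. The median log2 fold change of the 9 genes was 3.224, beside a median of 0 over all tested genes. Against pESCs, 7 of the 9 genes were called higher in the pXEN lines, BMP7 and ID2 were not called, and none was called lower. In that comparison 23.9% of all tested genes were called higher and 24.4% lower, and the medians were 0.86 for the 9 genes and -0.01 for all tested genes. Between the ESC types, 7 of the 9 genes were called higher in pESCs and BMP2 and BMP4 were not called, where 19.0% of all tested genes were called higher and 13.3% lower. There the median was 1.93 for the 9 genes and 0.01 for all tested genes. The mean FPKM was lowest in nESCs for all 9 genes and highest in pXEN cells for 8 of them, with BMP7 highest in pESCs. The pXEN libraries enter both pXEN comparisons, and each ESC type also enters 2 comparisons, so the comparisons are not independent of each other.

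**Figure D1:**
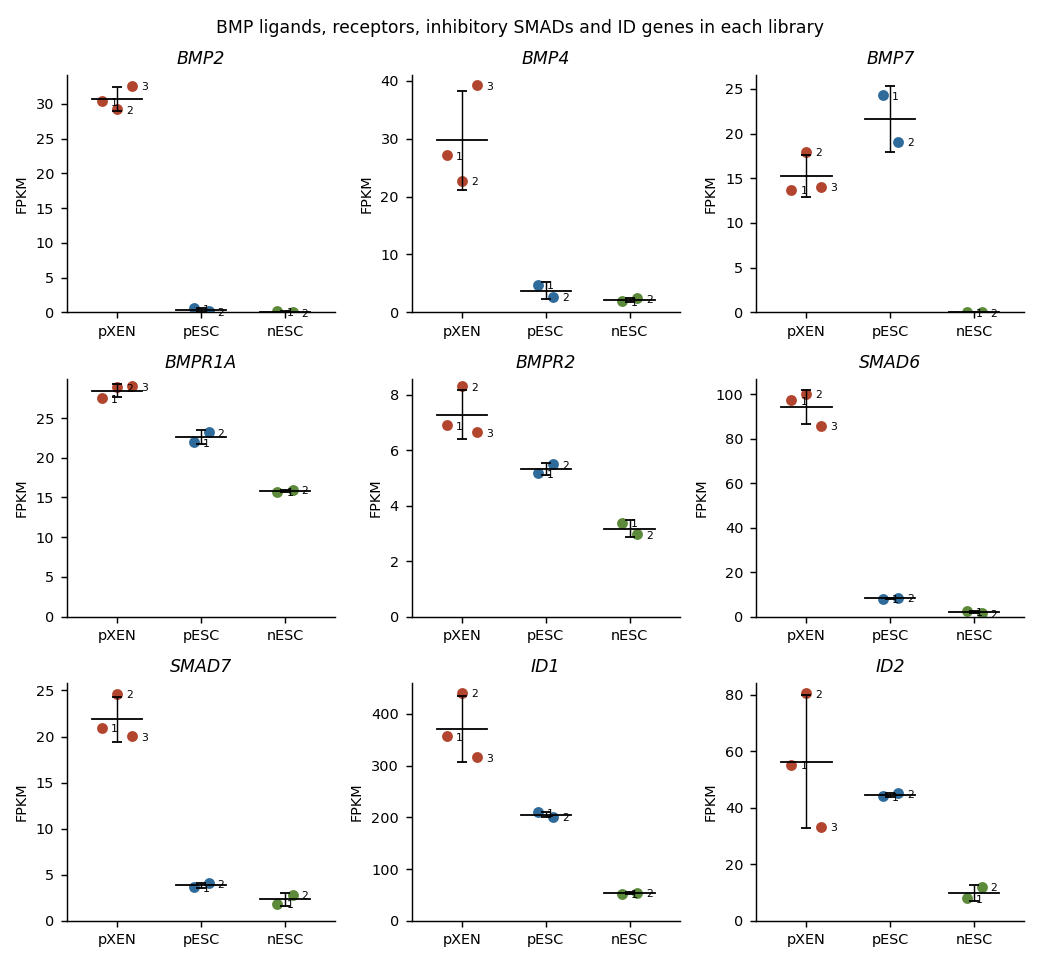
FPKM of the 9 genes in each library, with 1 point per cell line (numbered), a bar at the mean of the cell type and an error bar of 1 SD. The pXEN lines lie above the ESC lines for all genes except BMP7, where the pESC lines (24.3 and 19.1 FPKM) are highest, and ID2, where pXEN line 3 (33.3 FPKM) lies below the pESC lines.

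The 3 ligands were each at 13.7 FPKM or more in every pXEN line. BMP2 is the ligand best known from heart and bone formation and is made by endoderm of the early embryo, and its row lies on chromosome 17 from 17402040 to 17412718 (Sscrofa10.2). BMP2 was at 30.4, 29.2 and 32.6 FPKM in pXEN lines 1, 2 and 3, at 0.142 and 0 FPKM in the nESC lines, and at 0.591 and 0.170 FPKM in the pESC lines. The pXEN lines were close together and far above all ESC lines, which held at most 13 counts each. Against nESCs, with 3 counts in 1 line and none in the other, the ratio of depth-scaled counts was 424 with a 95% counting interval of 145 to 2057 (edgeR adjusted p = 1.03e-05). Its log2 fold change against pESCs was 6.34 (SE 0.44, edgeR adjusted p = 2.47e-05), or 7.45 without pESC line 1 and 5.69 without pESC line 2. The pESC and nESC lines did not overlap but were near the floor, and their difference was not called (ratio of depth-scaled counts 5.12, counting interval 1.48 to 27.3, edgeR adjusted p = 0.0919), although it was with DESeq2 (adjusted p = 0.042) and without pESC line 2 (edgeR adjusted p = 0.047). A second BMP2 row, on chromosome 17 from 17052609 to 17062958 and with the same summed exon length of 1742 bases, was looked up after its values were seen. Reads of 1 gene may therefore have been split between these rows, and the level of either row is uncertain. The second row had 283, 251 and 277 counts in the pXEN lines, none in either nESC line and 2 and 6 in the pESC lines. In pXEN cells it exceeded the nESC level at least 198-fold (edgeR adjusted p = 1.5e-05), the floor being 3 counts over the group. With both rows summed, an alternative added after seeing the data, the difference between the ESC types was called, at a log2 fold change of 2.82 in pESCs (edgeR adjusted p = 0.016).

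BMP4, a ligand that acts in mesoderm and germ cell induction in the mouse, lies on chromosome 1 from 203773959 to 203776407. It was at 27.1, 22.8 and 39.2 FPKM in pXEN lines 1, 2 and 3, at 1.92 and 2.45 FPKM in the nESC lines and at 4.80 and 2.72 FPKM in the pESC lines. The lowest pXEN line was far above the highest ESC line, and line 3 was the highest of the pXEN lines. The pXEN log2 fold change was 3.75 against nESCs (SE 0.36, edgeR adjusted p = 7.05e-05) and 2.99 against pESCs (SE 0.33, edgeR adjusted p = 0.000231). pESCs exceeded nESCs by a log2 fold change of 0.76 with a 95% interval of -0.10 to 1.63, which was not called (edgeR adjusted p = 0.158).

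BMP7, a ligand with roles in kidney and eye development, lies on chromosome 17 from 64749146 to 64840677. It was at 13.7, 18.0 and 14.05 FPKM in the pXEN lines, at 0 and 0.0224 FPKM in the nESC lines and at 24.3 and 19.1 FPKM in the pESC lines. BMP7 thus differed from BMP2 and BMP4 in its order, with pESCs above pXEN cells and nESCs at 1 count in total. Against the nESCs, the ratio of depth-scaled counts was 1392 in pXEN cells with a counting interval of 249.6 to 55030 (edgeR adjusted p = 1.94e-06). In pESCs the ratio was 1945 with an interval of 349 to 76870 (edgeR adjusted p = 6.04e-06). The log2 fold change of pXEN cells against pESCs was -0.50 with a 95% interval of -0.93 to -0.06, and it was not called (SE 0.19, edgeR adjusted p = 0.0592). It was called lower in 4 of 16 alternatives, which were upper-quartile scaling (edgeR adjusted p = 0.0304), DESeq2 (adjusted p = 0.0452), the fit of the 2 groups alone (edgeR adjusted p = 0.0427) and the fit without pXEN line 2, the highest of the pXEN lines (log2 fold change -0.63, edgeR adjusted p = 0.0064).

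Summed over the family, transcripts of the ligands that passed the filter on low counts (BMP2 with both rows, BMP3, BMP4, BMP5, BMP6, BMP7 and GDF7) came to 139.6, 132 and 149 FPKM in the pXEN lines. The sum was 17.8 and 18.3 FPKM in the nESC lines and 81.8 and 75.3 FPKM in the pESC lines, so the 3 cell types did not overlap. The composition also differed. BMP6, named here after its values were seen, made up 84.8% and 77.2% of the sum in the nESC lines, between 32.6% and 37.1% in the pXEN lines, and 30.9% and 35.5% in the pESC lines. It was itself higher in pXEN cells, at 51.6, 48.8 and 48.5 FPKM, than in nESCs, at 15.1 and 14.1 FPKM (log2 fold change 1.76, edgeR adjusted p = 5.21e-06), and pESCs, at 25.3 and 26.8 FPKM (log2 fold change 0.94, edgeR adjusted p = 0.00014). BMP2 took between 31.6% and 33.6% of the sum in the pXEN lines and less than 1% in every ESC line. The pESC lines instead held BMP7, at 29.7% and 25.3% of the sum, with BMP5, at 13.2 and 16.5 FPKM, and GDF7, at 13.3 and 9.45 FPKM. BMP5, a close relative of BMP7, had no count in any pXEN line and was at least 186.5-fold lower there than in pESCs (edgeR adjusted p = 0.000344). GDF7, a ligand known from the dorsal neural tube, had a pXEN log2 fold change of -6.30 against pESCs (SE 0.70, edgeR adjusted p = 0.000209), and of -8.03 without pXEN line 2 (edgeR adjusted p = 1.55e-05). BMP5 and GDF7 passed the filter on low counts through the pESC lines.

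**Figure D2:**
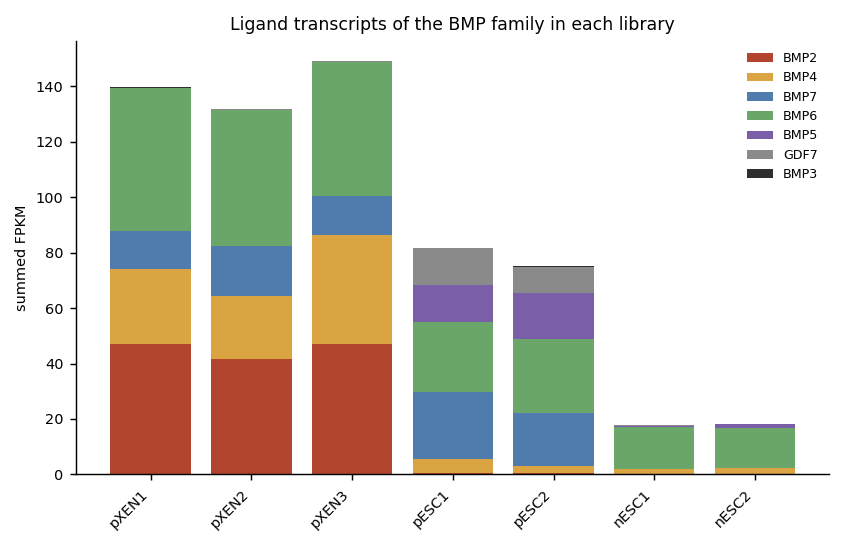
Stacked FPKM of the 7 BMP family ligands in each library, with BMP2 summed over both of its rows. BMP2, BMP4 and BMP6 fill most of each pXEN bar, BMP6 fills 84.8% and 77.2% of the short nESC bars, and BMP5, BMP7 and GDF7 appear beside BMP6 in the pESC bars.

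The receptors differed less than the ligands against nESCs, with log2 fold changes of 0.84 and 1.19 in pXEN cells. BMPR1A, a type I receptor kinase for BMP2 and BMP4, lies on chromosome 14 from 95245299 to 95280923. It was at 27.5, 28.9 and 29.0 FPKM in the pXEN lines, at 15.7 and 15.9 FPKM in the nESC lines and at 22.0 and 23.2 FPKM in the pESC lines. The 3 cell types did not overlap, and the highest pXEN line was only 1.05 times the lowest. The pXEN log2 fold change was 0.84 against nESCs (SE 0.10, edgeR adjusted p = 0.000242) and 0.34 against pESCs (SE 0.098, edgeR adjusted p = 0.0213). The smaller of these calls was lost in 5 of 17 alternatives, among them the fits without pESC line 1 (edgeR adjusted p = 0.165), without pESC line 2 (0.0973) and without pXEN line 3 (0.0505). BMPR1A was higher in pESCs than in nESCs by a log2 fold change of 0.50 (SE 0.11, edgeR adjusted p = 0.00981), a call that was lost without either line of either ESC type, with adjusted p between 0.0509 and 0.0819.

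BMPR2, the type II receptor specific to BMP ligands, lies on chromosome 15 from 117425964 to 117597333. It was at 6.90, 8.30 and 6.64 FPKM in the pXEN lines, at 3.38 and 2.96 FPKM in the nESC lines and at 5.17 and 5.49 FPKM in the pESC lines. Again the order was pXEN, pESC and nESC, without overlap. Its pXEN log2 fold change was 1.19 against nESCs (SE 0.14, edgeR adjusted p = 0.000232) and 0.46 against pESCs (SE 0.14, edgeR adjusted p = 0.0243). The latter call was lost in 4 of 17 alternatives, without pESC line 1 (edgeR adjusted p = 0.155) or line 2 (0.103) and with limma on log2(FPKM + 0.1) or log2(FPKM + 1) (adjusted p = 0.0945 and 0.0852). pESCs exceeded nESCs by 0.73 (SE 0.15, edgeR adjusted p = 0.00788), which was lost without nESC line 2 (0.0592) or pESC line 2 (0.0601).

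The wider list used here held 3 other type I receptors: ACVR1, known for its part in bone formation, BMPR1B, known from cartilage and the ovary, and ACVRL1, known from blood vessels. ACVR1 was at 44.4, 42.7 and 36.6 FPKM in the pXEN lines, at 33.2 and 18.7 FPKM in the nESC lines and at 42.0 and 43.8 FPKM in the pESC lines. It made up between 52.1% and 66.0% of the summed FPKM of BMPR1A, BMPR1B and ACVR1 in every library, or between 51.8% and 66.0% with ACVRL1 added to the sum, an alternative added after seeing the data. These shares rest on gene model lengths of 1568 bases for ACVR1 and 3278 bases for BMPR1A. In counts, BMPR1A exceeded ACVR1 in every library except nESC line 1. ACVR1 was higher in pXEN cells than in nESCs (log2 fold change 0.67, edgeR adjusted p = 0.0367), but its pXEN and pESC lines overlapped (log2 fold change -0.05, 95% interval -0.56 to 0.46, edgeR adjusted p = 0.873). The call against nESCs was lost in 6 of 16 alternatives, and without nESC line 2 the log2 fold change was 0.31 (edgeR adjusted p = 0.181). BMPR1B was low, at 2.03, 3.12 and 1.97 FPKM in the pXEN lines, 1.31 and 1.22 FPKM in the nESC lines and 0.630 and 0.302 FPKM in the pESC lines. Its pXEN log2 fold change was 2.36 against pESCs (edgeR adjusted p = 0.00164), or 2.97 without pESC line 1. Against nESCs it was 0.90 and not called (edgeR adjusted p = 0.0614), although 4 of 16 alternatives called it, among them the fits without pESC line 1 (0.0424) or line 2 (0.0427). ACVRL1, named after its values were seen, was at 0.747, 3.07 and 0.669 FPKM in the pXEN lines, 0.0404 and 0.210 FPKM in the nESC lines and 1.59 and 1.69 FPKM in the pESC lines. Its log2 fold change in pXEN cells against nESCs was 3.57 (edgeR adjusted p = 0.0123), or 2.48 without pXEN line 2, 2.81 and not called without nESC line 1 (edgeR adjusted p = 0.0873) and 5.13 without nESC line 2, and the call was also lost with limma on log2(FPKM + 1) (adjusted p = 0.0557). Its pXEN and pESC lines overlapped. ACVR2A, a type II receptor shared with activins, was lower in pXEN cells than in nESCs (log2 fold change -0.96, edgeR adjusted p = 0.00528) and higher than in pESCs (0.97, edgeR adjusted p = 0.00825), where the call was lost without pESC line 1 (0.0652) or line 2 (0.0539). ACVR2B, another type II receptor, named after its values were seen, was at 51.0, 23.3 and 51.9 FPKM in pXEN lines 1, 2 and 3. It was at 21.1 and 29.8 FPKM in the nESC lines and 41.4 and 34.1 FPKM in the pESC lines. It made up between 53.0% and 81.4% of the summed FPKM of BMPR2, ACVR2A and ACVR2B, and BMPR2 between 5.82% and 19.7%. RGMA, a co-receptor of BMP ligands, was at 0.591, 0.379 and 0.661 FPKM in the pXEN lines, at 55.9 and 85.5 FPKM in the nESC lines and at 28.4 and 26.3 FPKM in the pESC lines. This was the opposite direction to BMPR1A and BMPR2, with log2 fold changes of -7.03 (edgeR adjusted p = 1.01e-06) and -5.64 (edgeR adjusted p = 3.79e-06) in pXEN cells.

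Of the 9 genes, SMAD6 showed the widest gap after BMP2 between pXEN cells and both ESC types. SMAD6, the inhibitory SMAD that acts mainly on BMP receptors and SMAD1, lies on chromosome 1 from 182400359 to 182478849. It was at 97.1, 100.06 and 85.8 FPKM in the pXEN lines, at 2.40 and 1.57 FPKM in the nESC lines and at 8.03 and 8.44 FPKM in the pESC lines. Every pXEN line was more than 10 times any ESC line, and the ESC types did not overlap either. SMAD6 was 47.1-fold higher in pXEN cells than in nESCs (log2 fold change 5.56, SE 0.20, edgeR adjusted p = 9.89e-07) and 11.5-fold higher than in pESCs (SE 0.17 on the log2 scale, edgeR adjusted p = 5.54e-06). It was also higher in pESCs than in nESCs (log2 fold change 2.03, SE 0.20, edgeR adjusted p = 0.000273). A small gene on the opposite strand within SMAD6 had at most 2 counts in any library.

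SMAD7, the inhibitory SMAD that acts on both BMP and TGFβ receptors, lies on chromosome 1 from 108087684 to 108117509. It was at 21.0, 24.7 and 20.0 FPKM in the pXEN lines, at 1.85 and 2.82 FPKM in the nESC lines and at 3.64 and 4.06 FPKM in the pESC lines. The pXEN lines were again far above the ESC lines, which lay close to each other. SMAD7 was 9.34-fold higher in pXEN cells than in nESCs (log2 fold change 3.224, SE 0.22, edgeR adjusted p = 1.31e-05) and 5.72-fold higher than in pESCs (SE 0.21 on the log2 scale, edgeR adjusted p = 5.32e-05). The difference between the ESC types was 0.71 on the log2 scale (SE 0.23, edgeR adjusted p = 0.0446), a call that was lost in 9 of 17 alternatives, with adjusted p up to 0.235 without nESC line 1.

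SMAD1, which carries the BMP signal to the nucleus, was also far higher in pXEN cells. It was at 86.1, 80.7 and 87.4 FPKM in the pXEN lines, at 7.05 and 5.02 FPKM in the nESC lines and at 8.41 and 8.42 FPKM in the pESC lines. Its pXEN log2 fold change was 3.80 against nESCs (SE 0.16, edgeR adjusted p = 1.88e-06) and 3.34 against pESCs (SE 0.16, edgeR adjusted p = 4.57e-06). SMAD5, which acts in parallel with SMAD1, stayed between 1.73 and 2.57 FPKM in all 7 libraries and was not called in either pXEN comparison (log2 fold changes 0.37 and 0.24, edgeR adjusted p = 0.0921 and 0.261). SMAD5 has a second row, on an unplaced scaffold, so its level is uncertain. That row had 19, 16 and 10 counts in the pXEN lines, 10 and 9 in the nESC lines and 10 and 11 in the pESC lines. SMAD9, the least abundant of the 3, was at 0, 0.148 and 0.120 FPKM in the pXEN lines, at 1.07 and 1.08 FPKM in the nESC lines and at 0.434 and 0.252 FPKM in the pESC lines. The pXEN log2 fold change of SMAD9 was -3.53 against nESCs (SE 0.76, edgeR adjusted p = 0.0048). Against pESCs it was -1.87 and not called (SE 0.79, edgeR adjusted p = 0.0824), except without pXEN line 2 (-2.41, edgeR adjusted p = 0.0359). SMAD1 therefore made up between 96.8% and 97.2% of the summed FPKM of SMAD1, SMAD5 and SMAD9 in the pXEN lines, 68.9% and 64.1% in the nESC lines, and 76.4% and 78.4% in the pESC lines. With both SMAD5 rows summed, an alternative added after seeing the data, these shares were between 96.4% and 97.0%, 67.5% and 62.5%, and 75.0% and 76.9%. SMAD4, the shared partner of all receptor-activated SMADs, ranged only from 35.1 to 49.8 FPKM, with a pXEN log2 fold change of 0.39 against nESCs (edgeR adjusted p = 0.00863) and 0.04 against pESCs (95% interval -0.18 to 0.26, edgeR adjusted p = 0.757). The call against nESCs was lost with upper-quartile scaling (log2 fold change 0.22, edgeR adjusted p = 0.0685) and without nESC line 1 (0.083).

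The ratio of inhibitory SMADs (SMAD6 and SMAD7) to SMAD1, SMAD5 and SMAD9, taken from summed FPKM, was 1.33, 1.497 and 1.18 in the pXEN lines. It was 0.417 and 0.559 in the nESC lines and 1.06 and 1.16 in the pESC lines. The ratio in nESCs lay below that of all other lines, and pXEN line 3 lay just above pESC line 2. With both SMAD5 rows it was between 1.17 and 1.49 in the pXEN lines, 0.408 and 0.545 in the nESC lines and 1.04 and 1.14 in the pESC lines. The difference in this ratio between cell types was not tested.

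**Figure D3:**
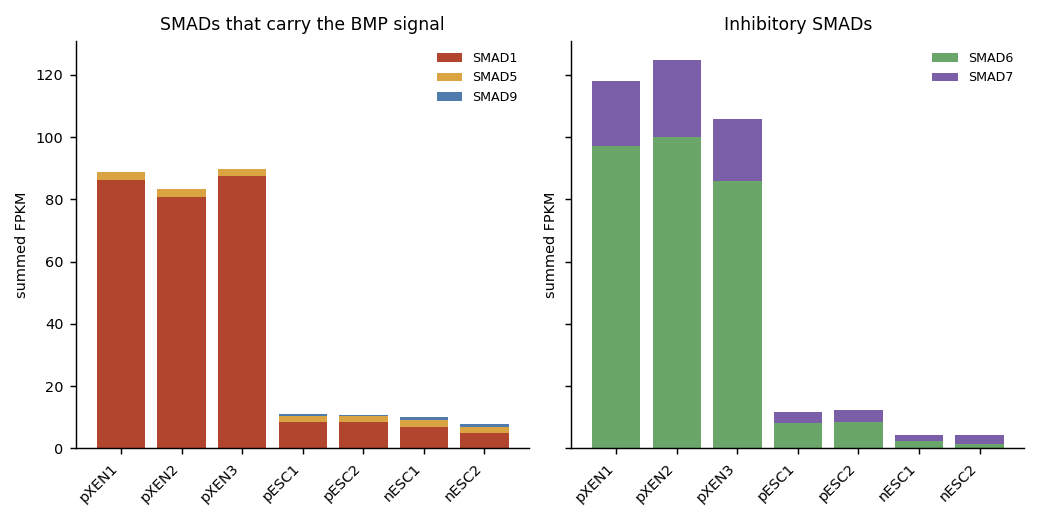
Stacked FPKM in each library of the SMADs that carry the BMP signal (left) and of the inhibitory SMADs (right), on a shared axis. The pXEN bars reach between 83.3 and 89.8 FPKM on the left and between 106 and 125 FPKM on the right, while no ESC bar exceeds 12.5 FPKM.

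ID1 was the most abundant of the 9 genes in every library, and ID1 and ID2 were both lowest in nESCs. ID1, an inhibitor of E proteins and a direct BMP target, lies on chromosome 17 from 40187156 to 40188384. It was at 357, 440.6 and 316 FPKM in pXEN lines 1, 2 and 3, at 52.3 and 54.5 FPKM in the nESC lines and at 209 and 201 FPKM in the pESC lines. The cell types did not overlap, and the pXEN lines varied more among themselves than the lines of either ESC type. ID1 was 6.93-fold higher in pXEN cells than in nESCs (log2 fold change 2.79, SE 0.16, edgeR adjusted p = 6.58e-06) and 1.82-fold higher than in pESCs (log2 fold change 0.86, SE 0.15, edgeR adjusted p = 0.00209). pESCs exceeded nESCs 3.81-fold (log2 fold change 1.93, SE 0.17, edgeR adjusted p = 0.000151). Without pXEN line 2, which was highest, the log2 fold changes in pXEN cells were 2.65 and 0.72, both still called.

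ID2, a related inhibitor of E proteins, lies on chromosome 3 from 135801780 to 135804369. It was at 55.3, 80.5 and 33.3 FPKM in pXEN lines 1, 2 and 3, at 7.93 and 12.0 FPKM in the nESC lines and at 44.0 and 45.1 FPKM in the pESC lines. The pXEN lines spread on both sides of the pESC lines, and all of them were above the nESC lines. ID2 was 5.65-fold higher in pXEN cells than in nESCs (log2 fold change 2.50, SE 0.38, edgeR adjusted p = 0.000855) and 4.44-fold higher in pESCs than in nESCs (log2 fold change 2.15, SE 0.39, edgeR adjusted p = 0.00483). Between pXEN cells and pESCs the log2 fold change was 0.35 with a 95% interval of -0.43 to 1.13 (edgeR adjusted p = 0.425). Without pXEN line 2 it was -0.01 (edgeR adjusted p = 0.987). With a replicate block that pairs lines by number it was 0.59 and called (edgeR adjusted p = 0.0384). The highest pXEN line was 2.42 times the lowest for ID2, the widest spread of the 9 genes, beside a median of 1.37 over 15161 genes whose mean was 10 counts or more. The line with the most ID2 and ID1, line 2, was also the line with the fibroblast markers, whose part in these values was not tested.

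ID4, the family member known from neural progenitors, was low, at 4.07, 8.96 and 3.16 FPKM in the pXEN lines, 2.00 and 2.59 FPKM in the nESC lines and 6.85 and 6.45 FPKM in the pESC lines. As for ID2, pXEN line 2 was the highest of all lines and the nESC lines were the lowest. Its log2 fold change against nESCs was 1.24 (edgeR adjusted p = 0.0404), or 0.65 without line 2 (edgeR adjusted p = 0.0245), and the call was lost in 8 of 16 alternatives. Against pESCs it was -0.29 (edgeR adjusted p = 0.588), and without line 2 it was -0.87 and called lower (edgeR adjusted p = 0.00533). A row without a gene name that is described as ID-3 lies on an unplaced scaffold, and it was looked up after its values were seen and is not counted among the 9 genes. It had 8, 13 and 7 counts in the pXEN lines, 0 and 2 in the nESC lines and 9 and 23 in the pESC lines. At this depth the pXEN and pESC lines overlapped (edgeR adjusted p = 0.594), and the ratio of depth-scaled counts against nESCs was 10.3 with a counting interval of 2.59 to 89.0 (edgeR adjusted p = 0.0261).

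ID1 provided most of the ID transcripts in every library, between 78.9% and 89.7% of the summed FPKM of ID1, ID2 and ID4. That sum was 416, 530 and 353 FPKM in the pXEN lines, 62.2 and 69.1 FPKM in the nESC lines and 260 and 253 FPKM in the pESC lines. In the fit of all lines, none of the 3 E proteins that ID proteins bind was called higher in any comparison. Of all tested genes, 28.3% and 23.9% were called higher in pXEN cells against nESCs and pESCs, and 19.0% in pESCs against nESCs. The shares called lower were 26.2%, 24.4% and 13.3%. With only 3 genes, a count of none called higher is not far from these shares. TCF3 was between 54.2 and 74.3 FPKM in all 7 libraries and was not called with all lines in 1 fit, with log2 fold changes of 0.27 and -0.04 in pXEN cells (edgeR adjusted p = 0.0688 and 0.811). Without pXEN line 2, however, TCF3 was called higher than in nESCs both in pXEN cells (log2 fold change 0.35, edgeR adjusted p = 0.0068) and in pESCs (0.31, edgeR adjusted p = 0.0171), the latter also in the fit of the 2 groups alone (0.0208). The other E proteins, TCF4 and TCF12, which are named after their values were seen, were lower in pXEN cells than in nESCs (log2 fold changes -1.62 and -1.03, edgeR adjusted p = 0.000565 and 0.00019) and than in pESCs (-1.36 and -0.63, edgeR adjusted p = 0.00173 and 0.00296). The ratio of summed ID to summed E protein FPKM was 4.26, 6.33 and 3.67 in the pXEN lines, 0.612 and 0.596 in the nESC lines and 2.29 and 2.32 in the pESC lines. ID transcripts thus exceeded E protein transcripts in the pXEN and pESC lines and not in the nESC lines.

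**Figure D4:**
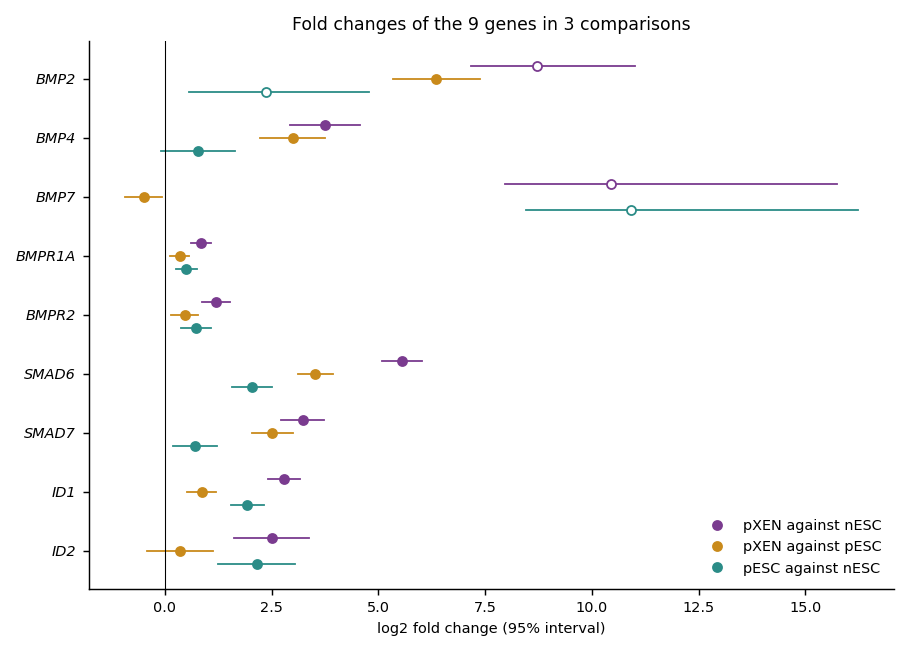
Log2 fold changes of the 9 genes in the 3 comparisons, with 95% intervals from the edgeR fit (filled points) or, where a group held 3 counts or fewer, log2 ratios of depth-scaled counts with counting intervals (open points). BMP2, BMP4, SMAD6 and SMAD7 lie at 2.52 or more in pXEN cells, BMP7 lies at -0.50 against pESCs, the receptors lie between 0.34 and 1.19, and the intervals of ID2 against pESCs and of BMP4 between the ESC types cross 0.

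The rest of the pathway was taken from a wider list of 65 genes, of which 53 had a row and 45 were tested. Against nESCs, 20 of the 45 (44.4%) were called higher in pXEN cells and 10 (22.2%) lower, beside 28.3% and 26.2% of all tested genes. Against pESCs, 15 (33.3%) were called higher and 13 (28.9%) lower, beside 23.9% and 24.4%. pESCs against nESCs gave 17 (37.8%) higher and 7 (15.6%) lower, beside 19.0% and 13.3%. The median log2 fold changes of the 45 genes were 0.60, -0.01 and 0.55, and the wider list held calls in both directions in all 3 comparisons.

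The list grouped 8 tested genes as intracellular inhibitors, one of which, USP9X, is a deubiquitinase of SMAD4 known to favour the signal. Of the other 7, 5 were called higher and 1 lower in pXEN cells against nESCs, and 4 were called higher and none lower against pESCs. Of all tested genes, 28.3% were called higher and 26.2% lower against nESCs, and 23.9% higher and 24.4% lower against pESCs. USP9X, singled out after its values were seen, was called higher in both comparisons (log2 fold changes 0.60 and 0.96, edgeR adjusted p = 0.0206 and 0.00314), the first call being lost with upper-quartile scaling (0.0593) and without nESC line 1 (0.171). BAMBI, a receptor without a kinase that blocks BMP and TGFβ signals, was at 42.2, 45.7 and 38.2 FPKM in the pXEN lines, 2.07 and 2.35 FPKM in the nESC lines and 13.1 and 14.2 FPKM in the pESC lines. BAMBI had the same order as SMAD6 and ID1, with log2 fold changes in pXEN cells of 4.24 (edgeR adjusted p = 9.89e-07) and 1.63 (edgeR adjusted p = 4.68e-05). SMURF1, a ubiquitin ligase that removes BMP SMADs, was at 12.4, 6.06 and 14.7 FPKM in the pXEN lines, 0.894 and 1.38 FPKM in the nESC lines and 3.45 and 4.05 FPKM in the pESC lines. Its log2 fold changes in pXEN cells were 3.27 (edgeR adjusted p = 0.000318) and 1.56 (edgeR adjusted p = 0.00847), and the second was lost without either pESC line, with adjusted p up to 0.0728. SMURF2, a related ligase, rose against nESCs (log2 fold change 0.93, edgeR adjusted p = 0.00101) and differed by 0.18 from pESCs (95% interval -0.14 to 0.50, edgeR adjusted p = 0.322).

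Among the extracellular antagonists and modulators, 8 were tested, of which 4 were called higher and none lower against nESCs, and 3 higher and 2 lower against pESCs. The latter counts are near the 23.9% and 24.4% of all tested genes called higher and lower there, and against nESCs 28.3% were called higher and 26.2% lower. BMPER, a secreted BMP-binding protein, was at 16.5, 25.2 and 14.6 FPKM in the pXEN lines and at 1.56 FPKM or less in every ESC line (log2 fold changes 4.42 and 4.02, edgeR adjusted p = 4.49e-05 and 8.99e-05), and the second fold change was 4.61 without pESC line 1. CHRD, the antagonist chordin, was at 16.8, 12.8 and 20.4 FPKM in the pXEN lines, 20.8 and 14.8 FPKM in the nESC lines and 4.31 and 3.88 FPKM in the pESC lines. The pXEN and nESC lines overlapped for CHRD (log2 fold change -0.10, 95% interval -0.61 to 0.40, edgeR adjusted p = 0.709), and both stood above the pESC lines, by 2.03 for pXEN cells (edgeR adjusted p = 0.000313). NBL1, an antagonist of the DAN family, was at 49.1, 46.6 and 39.7 FPKM in the pXEN lines, 5.27 and 4.35 FPKM in the nESC lines and 76.0 and 86.7 FPKM in the pESC lines. NBL1 was thus higher in pXEN cells than in nESCs (log2 fold change 3.218, edgeR adjusted p = 8.08e-06) and lower than in pESCs (-0.84, edgeR adjusted p = 0.00282), the order seen for BMP7. GREM1, another DAN family antagonist, was at 0, 3.60 and 0.819 FPKM in pXEN lines 1, 2 and 3, at 0 in both nESC lines and at 21.4 and 21.0 FPKM in the pESC lines. It was lower in pXEN cells than in pESCs (log2 fold change -3.78, edgeR adjusted p = 0.0133), and by more without pXEN line 2 (-5.56, edgeR adjusted p = 0.000389), the call being lost with DESeq2 (adjusted p = 0.13) and without either pESC line. Within the pXEN lines, GREM1 was highest in line 2, and the part of that line's fibroblast markers in this was not tested. CHRDL1, a relative of chordin, was higher in pXEN cells than in nESCs (log2 fold change 2.12, edgeR adjusted p = 0.00231) and its pXEN and pESC lines overlapped (-0.01, 95% interval -0.81 to 0.78, edgeR adjusted p = 0.983).

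Of the other target genes, with ID4 among them, 7 were tested. Against nESCs, 2 were called higher and 3 lower in pXEN cells, beside 28.3% and 26.2% of all tested genes. Against pESCs, 1 was called higher and 5 lower, beside 23.9% and 24.4%. TBX3, a T-box factor, was at 21.5, 14.1 and 17.9 FPKM in the pXEN lines and had no count in either nESC line and 4 and 0 counts in the pESC lines. It passed the filter on low counts through the pXEN lines. In pXEN cells it exceeded the nESC level at least 675-fold (edgeR adjusted p = 1.47e-05) and had a log2 fold change of 9.04 against pESCs (SE 0.54, edgeR adjusted p = 2.67e-05), where all of the counts came from pESC line 1. That fold change was 8.04 without pESC line 2, and without pESC line 1 it was 12.97 against a line with no count, a value that depends on the fit and is no bound. MSX1, a homeobox gene often used as a BMP readout, was at 0.686, 0.267 and 0.447 FPKM in the pXEN lines, 2.93 and 2.84 FPKM in the nESC lines and 22.4 and 20.9 FPKM in the pESC lines. MSX1 was therefore lowest where ID1, SMAD6 and SMAD7 were highest, with log2 fold changes in pXEN cells of -2.64 (edgeR adjusted p = 0.000253) and -5.53 (edgeR adjusted p = 7.97e-06). NOG and MSX2 had no row under their names.

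**Figure D5:**
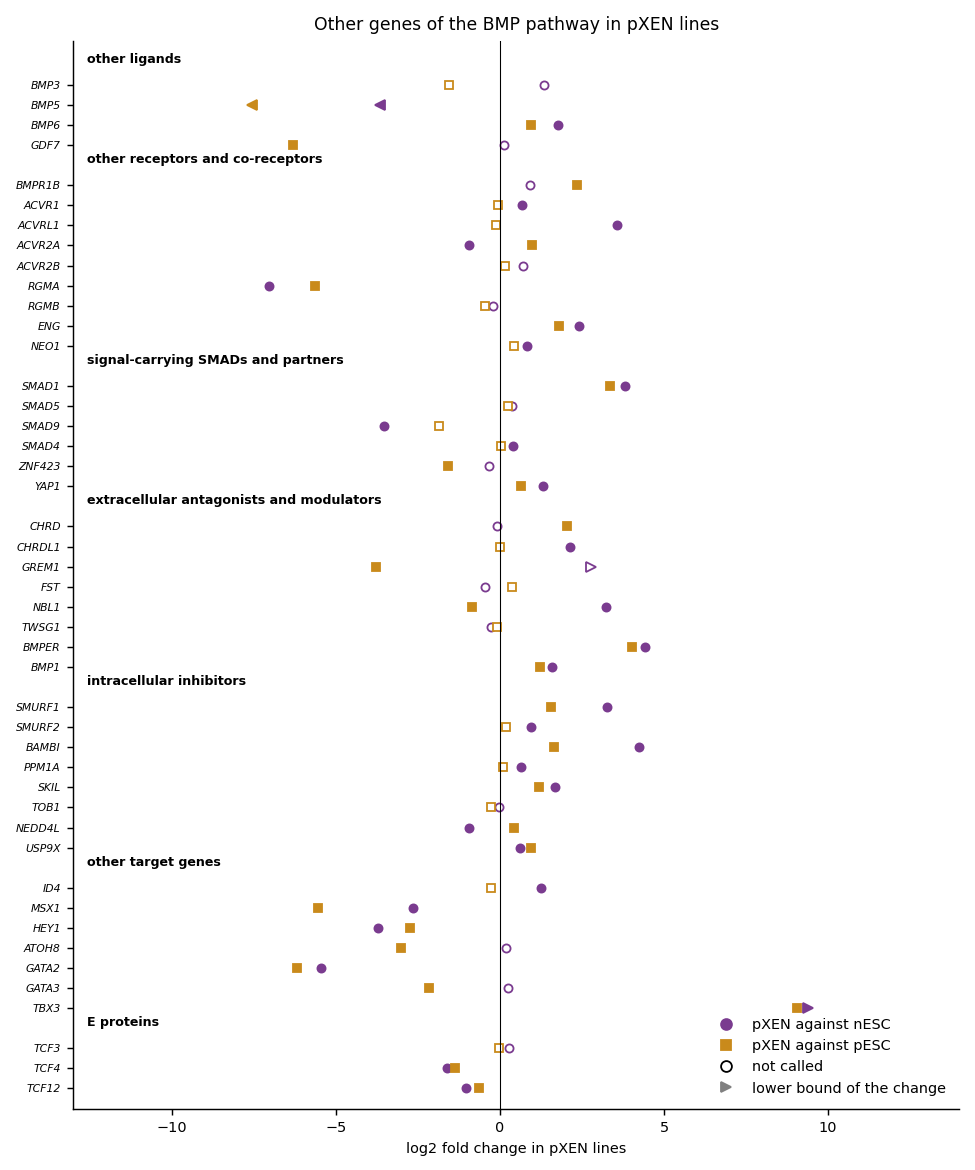
Log2 fold changes of the 45 tested genes of the wider BMP list in pXEN cells, grouped by role, against nESCs (circles) and pESCs (squares). Filled symbols are calls, and triangles mark lower bounds where a group had no count. Of the 8 genes grouped as intracellular inhibitors, 6 were called to the right of 0 against nESCs and 5 against pESCs. Without USP9X, which favours the signal, these were 5 and 4 of 7. Of all tested genes, 28.3% and 23.9% were called higher. RGMA, BMP5 and MSX1 lie to the left of 0.

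The genes whose pattern was most like that of the ID genes were chosen by the Euclidean distance of centred log2(FPKM + 1) over the 7 libraries, among tested genes outside all lists. For ID1 they were CREB3L2 (distance 0.326), MB21D2 (0.354) and XBP1 (0.415). XBP1, a transcription factor of the unfolded protein response, averaged 99.8 FPKM in pXEN cells, 16.2 FPKM in nESCs and 67.3 FPKM in pESCs. For ID2 they were IQGAP2 (0.525), CLEC18A (0.605) and XK (0.671), all with larger distances than those for ID1. IQGAP2, a scaffold protein of the cytoskeleton, averaged 26.9 FPKM in pXEN cells, 5.15 FPKM in nESCs and 23.1 FPKM in pESCs.

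The 9 genes lie on chromosomes 1, 3, 14, 15 and 17. Over all tested genes of chromosome 17, which carries BMP2, BMP7 and ID1, the median pXEN log2 fold change was -0.12 against nESCs and -0.10 against pESCs. In these 2 comparisons, BMP2 and ID1 were called higher in pXEN cells, opposite in sign to the median of their chromosome. BMP7 was also opposite in sign against nESCs, but against pESCs its uncalled log2 fold change of -0.50 had the sign of the median.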

How the data were processed

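RNA-seq was analysed for 3 pXEN lines, 2 naïve-like ESC (nESC) lines and 2 primed ESC (pESC) lines. The authors deposited 1 table of raw counts per gene and 1 table of FPKM, in which fragments are scaled by gene length and by 1 constant per library. The FPKM total used by the authors was between 0.913 and 1.08 times the counts on genes of the same library. The RNA was depleted of rRNA and the kit kept the strand. The submitters' processing notes name HISAT2 2.0.5, featureCounts 1.5.0-p3, edgeR 3.22.5 and the build Sscrofa10.2. The counts were tested as deposited with edgeR 4.0.16 (R 4.3.3), by the quasi-likelihood test in 1 model of 3 groups with TMM scaling, filterByExpr and Benjamini-Hochberg adjustment over 17447 genes. An adjusted p below 0.05 was taken as a call, the common biological coefficient of variation was 0.223, and the script was tested on simulated counts. Alternatives were DESeq2 1.42.0, limma 3.58.1 on log2(FPKM + 0.1) and log2(FPKM + 1), DESeq2 size factors, upper-quartile scaling, other filters on low counts, a replicate block, the 2 compared groups alone, and each line left out.

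Fold changes of genes with no count in a group are bounds against 3 counts over the group. Ratios of depth-scaled counts were used where a group held 1 to 3 counts. Counting intervals are exact binomial intervals at 95% and cover counting error only. The members and lists were chosen with earlier results of these data known. Of the wider list, 14 genes were named whatever their values, with up to 10 others with the largest log2 fold change in any comparison among called genes without overlap and with a group mean of at least 5 FPKM. Of the 53 genes matched, 7 were matched by gene identifier through a reference table. Coordinates and names are those of the deposited tables. Gene sequences were not used here. Whether the numbers of the lines pair them was checked from their deviations from the group means. Same-numbered lines correlated between -0.00892 and 0.0442, so the numbers were not taken as pairs.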

Additional observations from a re-analysis of the deposited data

How the results depend on the processing

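Of the recomputed counts of called genes, 97 stayed within 1.5 times the count reported and 2 did not. The 24 wider pathway genes called between pESCs and nESCs became 15 without pESC line 1 and 14 without pESC line 2, with a range of 14 to 33 when each line was left out in turn. Fits with 1 line left in a group assume that it varies like the other groups. All 9 members stayed called against nESCs except with at least 10 counts in every library, where 7 were tested and 7 were called. Members called ranged from 5 to 8 against pESCs and from 5 to 8 between the ESC types. With upper-quartile scaling the median of all tested genes shifted by -0.16 between pXEN cells and nESCs, and BMPR1A lost its call against pESCs (adjusted p = 0.0544). With the replicate block, which pairs lines by number, 9, 7 and 7 members were called in the 3 comparisons and 31, 27 and 22 wider genes. All tested genes called with the block were 8274, 6993 and 5041, beside 9514, 8429 and 5621 without it. The block ended the call of BMPR1A against pESCs (adjusted p = 0.0726) and gave one to ID2 (log2 fold change 0.59, adjusted p = 0.0384).

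Of the recomputed fold changes of single genes, 1585 kept their direction and side of the threshold, 89 lost a call, 30 gained one and 19 changed sign without being called. The cause was not tested, except that a line left out leaves fewer samples. When each line was left out in turn, the log2 fold change in pXEN cells against pESCs ranged from -0.006243 (without pXEN line 2) to 0.62 for ID2, from -0.28 to 0.26 (without pXEN line 2) for CHRDL1, from -0.10 to 0.039 (without pXEN line 2) for TCF3, from -1.207 (without pXEN line 2) to 0.2399 (without pXEN line 3) for ACVRL1 and from -0.10 to 0.035 (without pXEN line 3) for ACVR1. Against nESCs it ranged from -0.33 to 0.15 (without nESC line 1) for CHRD and from -1.615 (without pXEN line 2) to 1.00 for GDF7. Between the ESC types it ranged from -0.0013 (without nESC line 2) to 0.27 for SMAD5, from -0.50 to 0.024 (without nESC line 2) for TCF4 and from -0.19 (without pESC line 1) to 0.83 for BMPER. Against pESCs, ACVR1 became 0.028 with the replicate block and SMAD4 -0.044 with upper-quartile scaling. Against nESCs, GDF7 became -0.045 with upper-quartile scaling, and -0.16 and -9.359e-05 with limma at pseudocounts of 0.1 and 1. The depth, at which 3 counts are at least 0.231 CPM, limits BMP2 and BMP7 in nESCs to a counting ratio.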
